A study of Mus musculus with 18 samples.

Results

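Genes that were highest, or lowest, in mouse epiblast-like cells (EpiLCs) were sought by comparing the 3 EpiLC samples with the 3 samples of naive embryonic stem cells (ESCs) and the 3 samples of epiblast stem cells (EpiSCs), 9 of the 18 RNA-seq samples of the series. A gene was called peaking in EpiLCs where it was higher than in ESCs and higher than in EpiSCs, each at an adjusted p below 0.05, and where all 3 EpiLC samples lay above all 6 others. Dipping was the mirror image. Of 35773 annotated genes, 16901 had enough reads to be tested, and 1855 of these peaked and 1164 dipped.

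EpiLCs are made by taking naive ESCs out of self-renewing medium and into conditions that favour the epiblast fate. Naive ESCs resemble the preimplantation epiblast, and EpiSCs are lines in the primed state of the later, gastrulating epiblast. EpiLCs are commonly placed between them as a model of the formative epiblast, which has left naive pluripotency, acquires DNA methylation, and can respond to germ cell inducing signals. A gene that only moves from the naive to the primed level would be intermediate in EpiLCs, so peaking and dipping genes are those for which EpiLCs are not simply a midpoint.

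ESCs were kept in 2iL, that is LIF with inhibitors of MEK and GSK3. The labels name the EpiLCs and EpiSCs without their culture conditions or time in culture, and give wild type genotype and strain 129S2/SvPasCrl for all samples. The other groups, each with 3 samples, were primed cells cultured in Activin A and FGF2 (AFSCs), advanced pluripotent stem cells derived from these (ASCs), and ASCs converted from ESCs (ESC-ASCs). The study calls its transcriptome replicates biological. The age, the number of lines and whether replicates came from separate cultures are not given in the sources used here, so p-values measure the spread between these samples, part of which may be technical. Total counts were 4961934 to 8077252 per sample in ESCs, 8343111 to 9906473 in EpiLCs and 6976376 to 9742624 in EpiSCs. In each group 1 library stood apart from the other 2. The chi-square of the counts per degree of freedom was 1.61 between replicates 2 and 3 of ESCs against 33.5 and 34.3 with replicate 1, 2.18 between replicates 2 and 3 of EpiLCs against 19.6 and 22.9 with replicate 1, and 1.88 between replicates 1 and 3 of EpiSCs against 9.37 and 10.5 with replicate 2. Without these 3 libraries 1563 genes peaked and 941 dipped, of which 1393 and 847 were among the genes called with all samples.

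Levels are given as normalized read counts per kb of exon, in the order replicate 1, 2 and 3. The defining markers of the 3 states were checked first. The naive marker Esrrb was at 596, 802 and 806 in ESCs, 8.22, 14.8 and 11.5 in EpiLCs and 1.30, 0.583 and 0.947 in EpiSCs. Brachyury (T), a primitive streak factor, was at 18.7, 21.6 and 22.2 in ESCs, 4.99, 6.50 and 5.55 in EpiLCs and 400.2, 426 and 424 in EpiSCs. The streak factor Eomes was at 1.90, 2.52 and 2.68 in ESCs, 10.3, 14.9 and 12.4 in EpiLCs and 448, 502 and 467 in EpiSCs. Both were highest in EpiSCs. Of 5 markers of EpiLCs, Pou3f1 and Dnmt3b were highest in EpiLCs, whereas Fgf5, Otx2 and Sox3 were higher still in EpiSCs. Fgf5, the ligand most often used to mark the postimplantation epiblast, was at 0 in all 3 ESC samples, at 252, 259 and 287 in EpiLCs and at 708, 864 and 779 in EpiSCs (log2 fold change against EpiSCs -1.54 ± 0.17 SE, adjusted p = 7.34e-07). Otx2, a transcription factor of the postimplantation epiblast, was at 27.2, 24 and 25.9 in ESCs, 214, 194 and 209 in EpiLCs and 388, 336 and 371 in EpiSCs.

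Against ESCs, 4845 genes were higher and 4494 lower in EpiLCs (28.7% and 26.6%), and against EpiSCs 4564 were higher and 3642 lower (27.0% and 21.5%) (edgeR quasi-likelihood test, Benjamini-Hochberg adjusted p below 0.05). Against the mean of both groups, 4674 were higher and 3359 lower (27.7% and 19.9%). The peaking genes made up 11.0% of tested genes and the dipping genes 6.89%. Another 2075 genes (12.3%) were called in both comparisons in opposite directions, with EpiLCs between the 2 states, 1104 of them (6.53%) falling from ESCs through EpiLCs to EpiSCs and 971 (5.75%) rising. The log2 fold change was beyond 1 in both comparisons for 1006 peaking genes (5.95%) and 463 dipping genes (2.74%), and beyond 2 for 480 (2.84%) and 138 (0.817%). Without regard to the tests, the EpiLC samples lay above all 6 others for 14.8% of tested genes and below for 10.2%. Another 402 genes with too few reads to be tested lay above and 40 below. In bulk samples, a lower level from fewer cells of a type and one from less RNA per cell cannot be told apart.

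**Figure D1:**
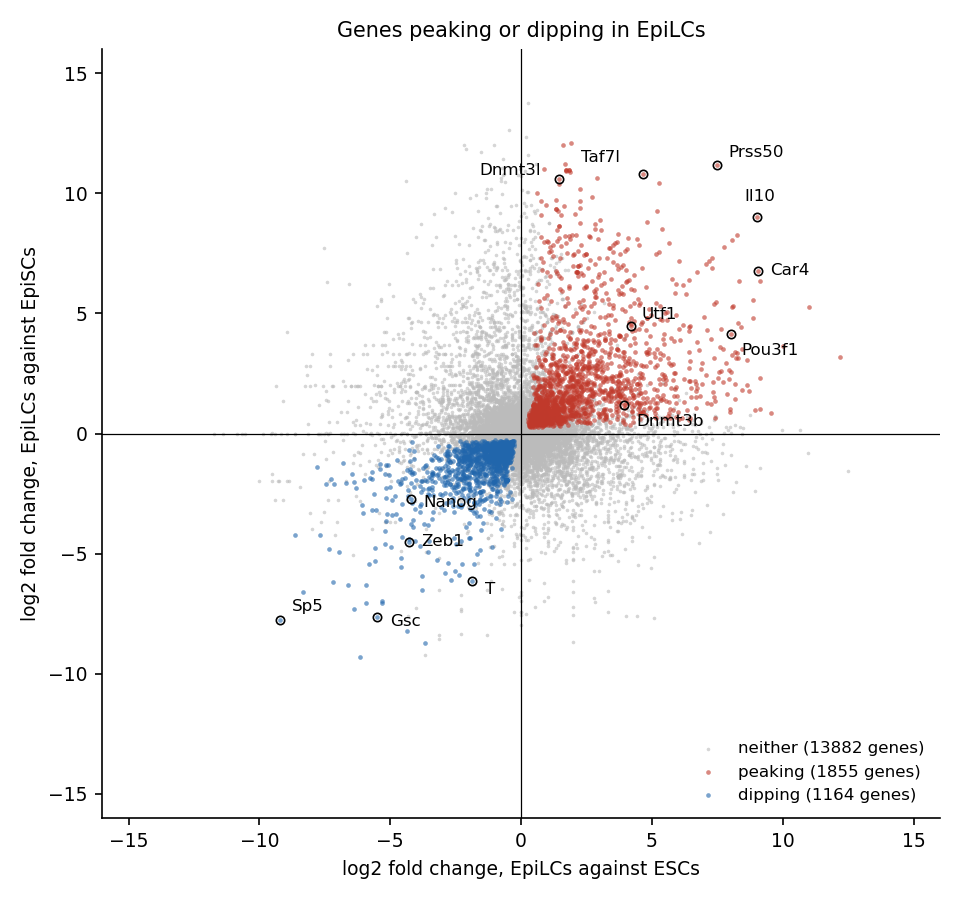
Log2 fold change of EpiLCs against ESCs (horizontal axis) and against EpiSCs (vertical axis) for the 16901 tested genes. Each point is a gene, the 1855 peaking genes are red at the upper right and the 1164 dipping genes blue at the lower left, and circled genes are named. The fitted changes of genes with 0 counts in a group depend on the prior count and are no bounds.

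The 15 peaking genes with the largest changes, among those with a mean above 8 in EpiLCs, were Il10, Prss50, Ccdc152, Wt1, Car4, Krt12, Rbbp8nl, Mal2, Nxf2, Cd6, 2610528J11Rik, Kynu, Izumo1r, Rassf9 and Cdh9. Il10, the anti-inflammatory cytokine interleukin 10, had no count in any ESC or EpiSC sample and was at 56.4, 37.8 and 40.8 in EpiLCs. Against a floor of 3 counts over the group, this was at least 43.8-fold higher than in ESCs and at least 56.9-fold higher than in EpiSCs. Car4, a membrane-bound carbonic anhydrase, was the most abundant of the 15, at 536, 508 and 489.9 in EpiLCs, 4.01, 0 and 0 in ESCs and 5.34, 4.03 and 4.86 in EpiSCs (log2 fold change 9.04 ± 0.43 SE and 6.77 ± 0.33 SE). Wt1, the zinc finger factor named after Wilms tumour, was at 47.7, 44.4 and 51 in EpiLCs and no higher than 0.540 in any ESC or EpiSC sample. Prss50, a testis serine protease, was at 189.7, 200.5 and 148 in EpiLCs, at 1.35, 0 and 1.53 in ESCs and at 0 in all EpiSC samples, that is at least 258-fold higher than in EpiSCs.

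Of the remainder, Izumo1r (also called Juno) is the egg receptor for sperm and was at 6.47, 9.15 and 9.69 in EpiLCs against 0 in all ESC samples and 1 of 3 EpiSC samples above 0. Nxf2, an X-linked mRNA export factor of the germline, was at 17.1, 11.4 and 10.8 in EpiLCs, with 1 count in ESCs and 1 in EpiSCs. These genes were all near the limit of detection at both ends. Krt12 was at 19.3, 18.6 and 21.4 in EpiLCs, but 54.4% of its exonic bases are shared with A830036E02Rik on the opposite strand and the counting is not stated to use strand. Cdh9, a type II cadherin, had no count in ESCs and 2 counts in EpiSCs, for a ratio to EpiSCs of 45.2 (95% counting interval 12.2 to 379). Its fitted log2 fold change of 5.31 became 8.09 without EpiSC replicate 2, which held both counts. Among the others of the 15, the mean EpiLC level was 8.69 for Kynu, a tryptophan catabolic enzyme, and 105 for 2610528J11Rik.

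Of the 23 genes listed as formative or early postimplantation, 8 peaked (34.8%, against 11.0% of all tested genes). A further 1 dipped, and 6 rose from ESCs through EpiLCs to EpiSCs. The median log2 fold change against both ends was 2.17, against 0.07 over all tested genes. For the list it was 3.33 against ESCs and 0.29 against EpiSCs. Over all tested genes the median was 0.06 against ESCs and 0.07 against EpiSCs. The peaking members were Pou3f1, Utf1, Tcf15, Grhl2, Cldn6, Lef1, Sall2 and Pim2. Pou3f1 (Oct6), a POU factor of the early postimplantation epiblast, was at 2.05, 2.12 and 3.19 in ESCs, 550.0, 677 and 760.1 in EpiLCs and 30.3, 47.4 and 35.5 in EpiSCs (log2 fold change 8.03 ± 0.25 SE, adjusted p = 1.48e-14, and 4.14 ± 0.18 SE, adjusted p = 2.07e-12). Utf1, a chromatin-associated factor of pluripotent cells, was at 3966, 3667 and 3839 in EpiLCs with similar levels at both ends, at 165, 228 and 230.0 in ESCs and 163, 184 and 167 in EpiSCs (4.20 ± 0.24 SE and 4.49 ± 0.24 SE). Tcf15, a basic helix-loop-helix factor, was at 448, 274 and 316 in EpiLCs against 54.2, 45.1 and 36.4 in ESCs and 28.1, 16.2 and 33.1 in EpiSCs.

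Other members passed by a smaller margin on the EpiSC side. Pim2, a serine/threonine kinase, was at 2256 ± 66.3 (SD, n = 3) in EpiLCs, 42.9 ± 8.85 in ESCs and 1457 ± 103 in EpiSCs. Sall2, a spalt family zinc finger factor, was at 176 ± 6.50 in EpiLCs, 11.8 ± 1.84 in ESCs and 121 ± 4.27 in EpiSCs. The members above their EpiLC level in EpiSCs were Fgf5, Otx2, Sox3, Fgf15, Wnt8a and Zic2. The ligand Fgf15 was at 141 ± 20.5 in EpiLCs and 544 ± 44 in EpiSCs, and the ligand Wnt8a at 103 ± 10.6 and 324 ± 9.07. Without the 3 libraries that stood apart 8 members peaked and 1 dipped. The list thus held genes that were highest in EpiLCs and genes that rose further in EpiSCs.

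Among 14 core pluripotency genes, 3 peaked (21.4%, against 11.0% of all tested genes) and 2 dipped (14.3%, against 6.89%). Besides Utf1, the linked genes Dppa2 and Dppa4, whose proteins act together on chromatin, peaked, although their EpiSC side was nearly empty. Dppa4 was at 299, 215 and 204 in ESCs, 1066, 822 and 820.4 in EpiLCs and 1.71, 1.72 and 4.98 in EpiSCs. Dppa2 was at 116 ± 2.87 in ESCs, 459 ± 25.8 in EpiLCs and 2.53 ± 0.941 in EpiSCs (SD, n = 3). Pou5f1 (Oct4) was at 5218 ± 183 in ESCs, 6239 ± 807 in EpiLCs and 8089 ± 371 in EpiSCs, with adjusted p of 0.264 and 0.136. Of 20 naive genes, none peaked, and 13 fell from ESCs through EpiLCs to EpiSCs. Klf2 was at 1904 ± 309 in ESCs, 45.1 ± 8.10 in EpiLCs and 14.9 ± 1.09 in EpiSCs. Nanog, described with the dipping genes, was the only naive gene that dipped.

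The genes of the de novo DNA methyltransferases, Dnmt3a and Dnmt3b, and of their cofactor, Dnmt3l, all peaked. Dnmt3b was at 157, 181 and 189 in ESCs, 2442, 2748 and 2789 in EpiLCs and 1131, 1277 and 1155 in EpiSCs (log2 fold change 3.92 ± 0.16 SE, adjusted p = 2.57e-13, and 1.18 ± 0.14 SE, adjusted p = 1.14e-06). Dnmt3a was at 5.92, 7.76 and 7.71 in ESCs, 241, 334 and 338 in EpiLCs and 49.5, 65.2 and 50.2 in EpiSCs. Both were thus highest in EpiLCs with EpiSCs above ESCs. Dnmt3l, which lacks catalytic activity, was at 103, 180.3 and 169 in ESCs, 386, 408 and 432 in EpiLCs and 0.439, 0.295 and 0 in EpiSCs, so that its lowest group was EpiSCs. The maintenance methyltransferase gene Dnmt1 was lower than in ESCs (-0.59 ± 0.13 SE) and did not pass the test against EpiSCs (-0.26 ± 0.13 SE, adjusted p = 0.0899). The dioxygenase genes Tet1 and Tet2 fell from ESCs through EpiLCs to EpiSCs, from 51 ± 2.46 through 5.78 ± 1.17 to 2.37 ± 0.435 for Tet2. Of 18 polycomb genes 1 peaked (5.56%, against 11.0% of all tested genes) and 2 dipped (11.1%, against 6.89%). Pcgf6 peaked (436 ± 34 in EpiLCs, 332 ± 34.8 in ESCs and 317 ± 8.30 in EpiSCs) and Pcgf2 and Rnf2 dipped.

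**Figure D2:**
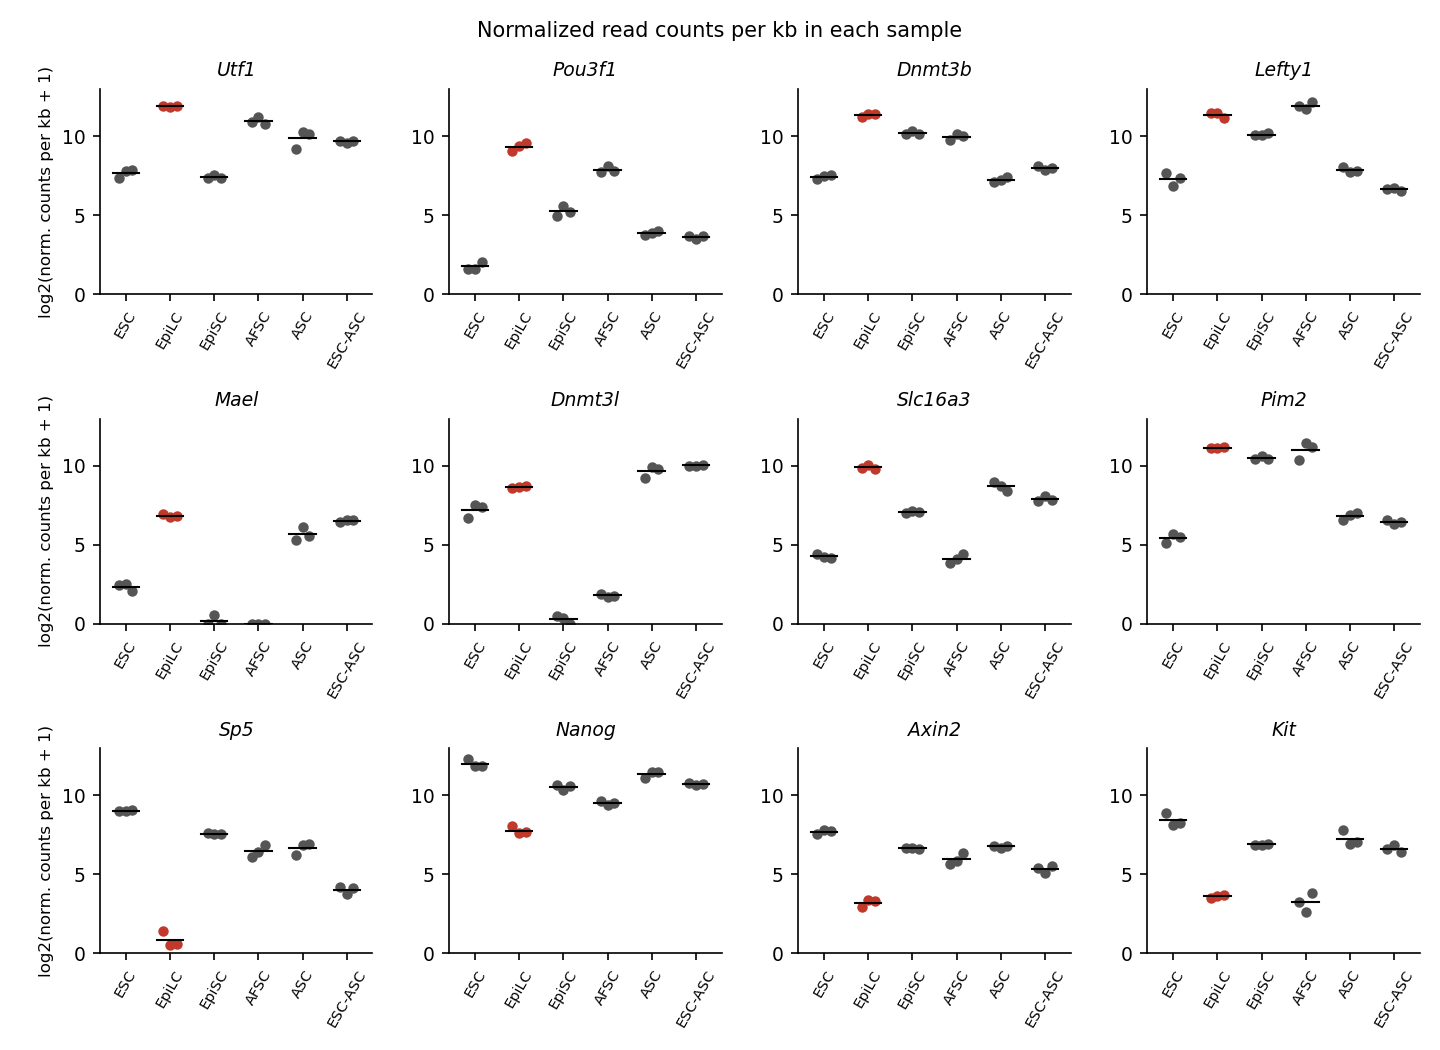
Levels of 12 peaking or dipping genes in each of the 18 samples, as log2 of the normalized read count per kb plus 1. Points are samples (EpiLCs in red, replicates 1 to 3 from left to right) and the line is the mean of the log values of 3 samples. Sp5, Nanog and Axin2 have their lowest samples in EpiLCs, and Utf1, Pou3f1 and Dnmt3b their highest.

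Genes of meiosis and of the germline are normally silenced in somatic cells by DNA methylation of their promoters, among other means. Of 19 listed genes, all tested, 11 peaked (57.9%, against 11.0% of all tested genes) and none dipped. The peaking genes were Mael, Taf7l, Sycp1, Sycp2, Sycp3, Ddx4, Smc1b, Stra8, Slc25a31, Mov10l1 and Tdrd1. The median log2 fold change over the 19 was 1.46 against ESCs and 6.85 against EpiSCs. It was 4.43 against both, or 4.02 with the 5 genes that had a group at 0 placed at their bound. Mael, a piRNA pathway gene, was at 4.54, 4.70 and 3.22 in ESCs, 124, 108 and 114 in EpiLCs and 0, 0.509 and 0 in EpiSCs. Taf7l, an X-linked germ cell paralogue of the general factor gene Taf7, was at 2.63, 3.63 and 3.98 in ESCs, 95.2, 89.4 and 88.2 in EpiLCs and 0 in all EpiSC samples, at least 199.9-fold higher than in EpiSCs. For both genes every EpiLC sample was far above the highest sample of either end.

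Several germline genes were at lower levels. Ddx4, the Vasa helicase of germ cells, was at 31.6, 32.6 and 34.2 in EpiLCs, 4.15, 7.76 and 7.83 in ESCs and 0 in EpiSCs. Stra8, the retinoic acid induced gene of meiotic entry, was at 21.8, 13.7 and 18.4 in EpiLCs and 7.64, 3.23 and 4.95 in ESCs. Sycp3, a component of the synaptonemal complex, was at 103, 37.8 and 41.5 in ESCs, 184, 104 and 116 in EpiLCs and 14.5, 10.5 and 10.6 in EpiSCs, but shares 52.2% of its exonic bases with Chpt1 on the opposite strand. The 8 genes that did not peak were all higher in EpiLCs than in EpiSCs, and failed on the ESC side. Among them, Dazl, an RNA-binding protein of germ cells, was higher in ESCs (576, 361 and 359.8) than in EpiLCs (51.8, 39.1 and 42.6), and Hormad1, a meiotic chromosome axis gene, was at 186, 86.2 and 89 in ESCs and 184, 103 and 117 in EpiLCs. All 19 genes were called higher than in EpiSCs, and 11 higher than in ESCs. Without the 3 libraries that stood apart 12 of the 19 peaked. Of 12 primordial germ cell specification genes, Dnd1 peaked (8.33%, against 11.0% of all tested genes) and Kit and Nanog dipped (16.7%, against 6.89%). The germ cell factor gene Prdm14 was at 146, 165 and 181 in ESCs and at or below 1.04 in all EpiLC and EpiSC samples.

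The RefSeq promoter windows of GRCm38.p6, from 250 bases before to 50 after the annotated start, were searched for the E-box letters CACGTG, which read the same on both strands. Windows were at hand for 18 of the 19 germline genes, and 9 of them held the letters (50%), against 10.1% of the windows of the 11848 tested genes with one and 7.24% of those of all 27025 genes in the table. Among the 11 peaking genes it was 8, and among the 7 other genes with a window it was 1, Hormad1. Such a match is a description of the letters and shows nothing of a factor. The sequences around the match are shown for 4 of the peaking genes because they show where these letters lie, 5′ to 3′ on the strand of the gene with the matched letters in capitals. They lie at chr1:166238950-166238979 (Mael, minus strand), chrX:134476522-134476551 (Taf7l, minus strand), chr3:102936177-102936206 (Sycp1, minus strand) and chr13:112652322-112652351 (Ddx4, minus strand), where the match starts 223, 49, 94 and 29 bases before the annotated start.
Mael: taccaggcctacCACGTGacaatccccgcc
Taf7l: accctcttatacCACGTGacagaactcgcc
Sycp1: tagagaacccggCACGTGggaagggaaatc
Ddx4: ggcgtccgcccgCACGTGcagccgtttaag

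**Figure D3:**
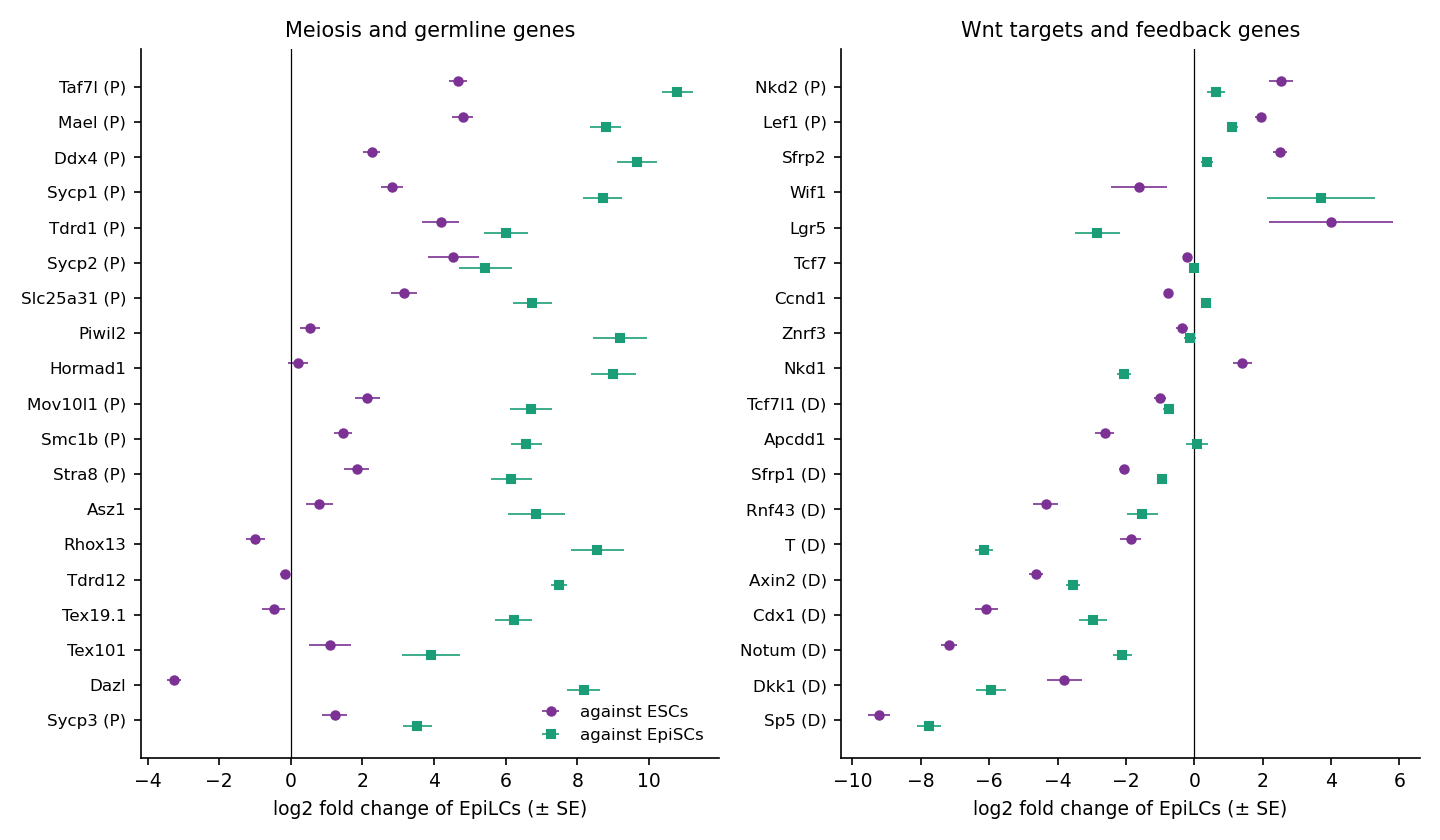
Log2 fold change of EpiLCs against ESCs (purple circles) and against EpiSCs (green squares), with SE, for the 19 meiosis and germline genes and the 19 Wnt target and feedback genes. P marks the 11 and 2 peaking genes and D the 9 dipping genes, and every germline gene lies to the right of 0 against EpiSCs. Fitted changes of genes with 0 counts in a group are no bounds.

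Of 11 tested genes that mark the 2-cell embryo, 6 peaked (54.5%, against 11.0% of all tested genes). They were Zscan4c, Zscan4d, Zscan4f, Gm4340, Tmem92 and Tcstv3. Zscan4d was at 3.47, 2.56 and 1.96 in ESCs, 22.9, 13.2 and 19.8 in EpiLCs and 0 in all EpiSC samples. Zscan4f was at 17.1, 10.1 and 9.11 in ESCs, 93.8, 56 and 59.5 in EpiLCs and 0, 0 and 0.487 in EpiSCs. In ASCs the mean of Zscan4f was higher again, at 998. The Zscan4 genes and Gm4340 belong to families of near-identical copies and multi-mapping fragments were counted for each copy, so the members are not separate measurements. Tcstv3 had 6 counts in EpiLCs and none at the ends, and lost its call in 5 alternative analyses. The median log2 fold change of the list against both ends was 4.25, or 2.10 with the 8 genes that had a group at 0 placed at their bound. Over the single alternatives 4 to 7 of the genes peaked, except with at least 10 counts in every one of the 9 samples, where 0 of them could be tested, against 1 of the 19 germline genes. Of 23 imprinted genes 3 peaked (13%, close to the 11.0% of all tested genes), H19, Mest and Snrpn, and 1 dipped (4.35%, against 6.89%). The call of Snrpn was lost without the 3 libraries that stood apart. H19, a maternally expressed long noncoding RNA, was at 18.3, 5.40 and 13.2 in ESCs, 113, 104 and 97.9 in EpiLCs and 4.98, 0 and 0 in EpiSCs. Mest, a paternally expressed gene of which 23.1% of the exonic bases are shared with Copg2 on the opposite strand, was at 74.4, 57.5 and 65.6 in ESCs, 614, 578 and 579 in EpiLCs and 295, 303 and 294 in EpiSCs. The dipping imprinted gene Plagl1, a zinc finger factor, was at 4.29, 4.41 and 4.38 in EpiLCs, 219.6, 164 and 169 in ESCs and 10.9, 10.6 and 10.5 in EpiSCs.

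FGF signals through receptor kinases to ERK, which induces its own inhibitors of the Sprouty and dual-specificity phosphatase families. Of 23 genes of the FGF-ERK pathway, 4 peaked (17.4%, against 11.0% of all tested genes), namely Spry1, Spry4, Dusp4 and Dusp6. All 4 encode negative regulators, but Dusp5, Dusp14, Spred1 and Spred2 of the list neither peaked nor dipped. None of the 4 peaking genes had its EpiLC samples above all 15 other samples of the series, whereas 35.4% of all peaking genes did. The receptor Fgfr1 and the inhibitor Spry2 dipped (8.70%, close to the 6.89% of all tested genes). Dusp4, a phosphatase acting on ERK, was at 1.44, 1.27 and 1.22 in ESCs, 59, 88.1 and 85.1 in EpiLCs and 5.75, 22.8 and 11.1 in EpiSCs. Spry4 was at 0.429, 1.52 and 1.22 in ESCs, 51.1, 82.9 and 81.7 in EpiLCs and 25.5, 26.5 and 22.7 in EpiSCs. Both were lowest in ESCs and intermediate in EpiSCs. Over the list, the median log2 fold change was 1.17 against ESCs and -0.38 against EpiSCs. Dusp6 was at 328 ± 26.5 (SD, n = 3) in EpiLCs and 259 ± 7.55 in EpiSCs, and lost its call in 7 alternative analyses. Fgfr1 lost its call in 5, among them those without ESC replicate 1 and without EpiLC replicate 1 or 3. Spry2 went the other way, at 368, 416 and 401 in ESCs, 165, 163 and 188 in EpiLCs and 697, 642 and 711 in EpiSCs. The ligand Fgf4 fell from 668 ± 59.6 in ESCs through 449 ± 1.16 to 14.2 ± 2.34, and the ligand Fgf8 rose from 4.13 ± 2.88 through 109.7 ± 22.4 to 2211 ± 298.

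Nodal and activin signal through SMAD2 and SMAD3, and Nodal induces its antagonists of the Lefty family. In this list, 4 of 20 tested genes peaked (20%, against 11.0% of all tested genes) and 3 dipped (15%, against 6.89%). The median log2 fold change was near 0, at -0.01 against ESCs, -0.12 against EpiSCs and -0.09 against both. Lefty1, the secreted Nodal antagonist, was at 200.5, 113 and 164 in ESCs, 2896, 2816 and 2299 in EpiLCs and 1079, 1078 and 1164 in EpiSCs. Skil, a repressor of SMAD signalling, was at 14.6, 26.5 and 25.1 in ESCs, 138, 198 and 189 in EpiLCs and 59.3, 82.6 and 68.4 in EpiSCs. Foxh1, the DNA-binding partner of these SMADs, was at 140.2, 258 and 255 in ESCs, 426, 566 and 606 in EpiLCs and 74.4, 145 and 107 in EpiSCs. Gdf1 also peaked, but all of its exonic bases are shared with Cers1. The dipping members were Smad3, the receptor gene Acvr1b and the activin subunit gene Inhbb. Smad3 was at 74.3, 87.4 and 82.5 in ESCs, 21.3, 30.2 and 30.7 in EpiLCs and 65.4, 74.1 and 62.2 in EpiSCs. Nodal itself was at 272 ± 57.2 in ESCs, 302 ± 43.2 in EpiLCs and 404 ± 34.3 in EpiSCs, with adjusted p of 0.507 and 0.101.

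Of 17 tested BMP response genes, Bmp4 and Dusp9 peaked (11.8%, close to the 11.0% of all tested genes). Id2, Id4 and Smad6 dipped (17.6%, against 6.89%). The call of Id4 was lost without EpiLC replicate 2 or 3 and without EpiSC replicate 1 or 3. Dusp9, an X-linked ERK phosphatase, was at 36.2, 46.6 and 52.5 in ESCs, 520.4, 737 and 752 in EpiLCs and 52.5, 78.4 and 61.4 in EpiSCs. Id2, an inhibitor of basic helix-loop-helix factors, was at 143 ± 22 in ESCs, 69.1 ± 8.71 in EpiLCs and 127 ± 12.7 in EpiSCs. Of 13 retinoic acid genes 5 peaked (38.5%, against 11.0% of all tested genes) and none dipped. The median log2 fold change was 1.56 against ESCs and -0.12 against EpiSCs, or 1.11 against both ends. In this list 10 genes were higher than in ESCs, whereas 5 were higher and 5 lower than in EpiSCs. Of the latter, 3 rose from ESCs through EpiLCs to EpiSCs. The peaking genes were the binding proteins Crabp1 and Crabp2, the receptor Rarg, the synthetic enzyme Aldh1a3 and Stra8. Rarg was at 44.6, 76.8 and 78.2 in ESCs, 228, 262 and 267 in EpiLCs and 46.3, 55.1 and 51.1 in EpiSCs. Crabp2 was at 37.2, 14.1 and 22.8 in ESCs, 237, 175 and 189 in EpiLCs and 71.5, 48 and 59.2 in EpiSCs. The 3 EpiLC samples of both genes were above every other sample of the series, those of AFSCs, ASCs and ESC-ASCs included.

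Of 22 genes of glycolysis and the hypoxia response, 12 peaked (54.5%, against 11.0% of all tested genes) and 1 dipped. The median log2 fold change against both ends was 1.01. The gene furthest from both ends was Pdk1, the kinase that shuts pyruvate dehydrogenase, at 7.34, 9.13 and 6.45 in ESCs, 185, 218 and 231 in EpiLCs and 9.28, 10.8 and 12.5 in EpiSCs (log2 fold change 4.79 ± 0.17 SE, adjusted p = 5.35e-14, and 4.29 ± 0.16 SE, adjusted p = 1.81e-13). Slc16a3, the lactate exporter MCT4, was at 20.7, 17.7 and 17.2 in ESCs, 921, 1069 and 894 in EpiLCs and 128, 140.4 and 137 in EpiSCs. Bnip3, a mitophagy receptor induced by hypoxia, was at 67.8, 75.5 and 73.9 in ESCs, 647, 662 and 685 in EpiLCs and 135, 126 and 129 in EpiSCs. By the rule that chose them, the EpiLC samples of all 3 genes lay above those of both ends. The glucose transporter genes went opposite ways, Slc2a1 peaking and Slc2a3 dipping. Slc2a1 was at 787, 594 and 617 in ESCs, 1840.3, 2178 and 1842 in EpiLCs and 322, 299.6 and 332 in EpiSCs. Slc2a3 was at 1484, 1210.4 and 1311 in ESCs, 218, 342 and 267 in EpiLCs and 604, 657 and 591 in EpiSCs. Among the enzymes of the pathway, Aldoa, Tpi1, Pgk1, Pgam1, Eno1 and Pfkl peaked, at smaller log2 fold changes of 0.45 (Pgam1) to 1.11 (Tpi1) on the nearer side. The calls of Pgam1, Pfkl, Pgk1 and Eno1 were lost in 7, 6, 3 and 1 alternative analyses, and that of the hypoxia-induced gene Ankrd37 in 4. The hexokinase gene Hk1 fell from ESCs (161 ± 29.6) through EpiLCs (30.1 ± 2.92) to EpiSCs (9.06 ± 0.444). Without the 3 libraries that stood apart 9 of the 22 peaked. Of the 12 peaking genes 1 had its EpiLC samples above all 15 other samples of the series, whereas 35.4% of all peaking genes did.

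**Figure D4:**
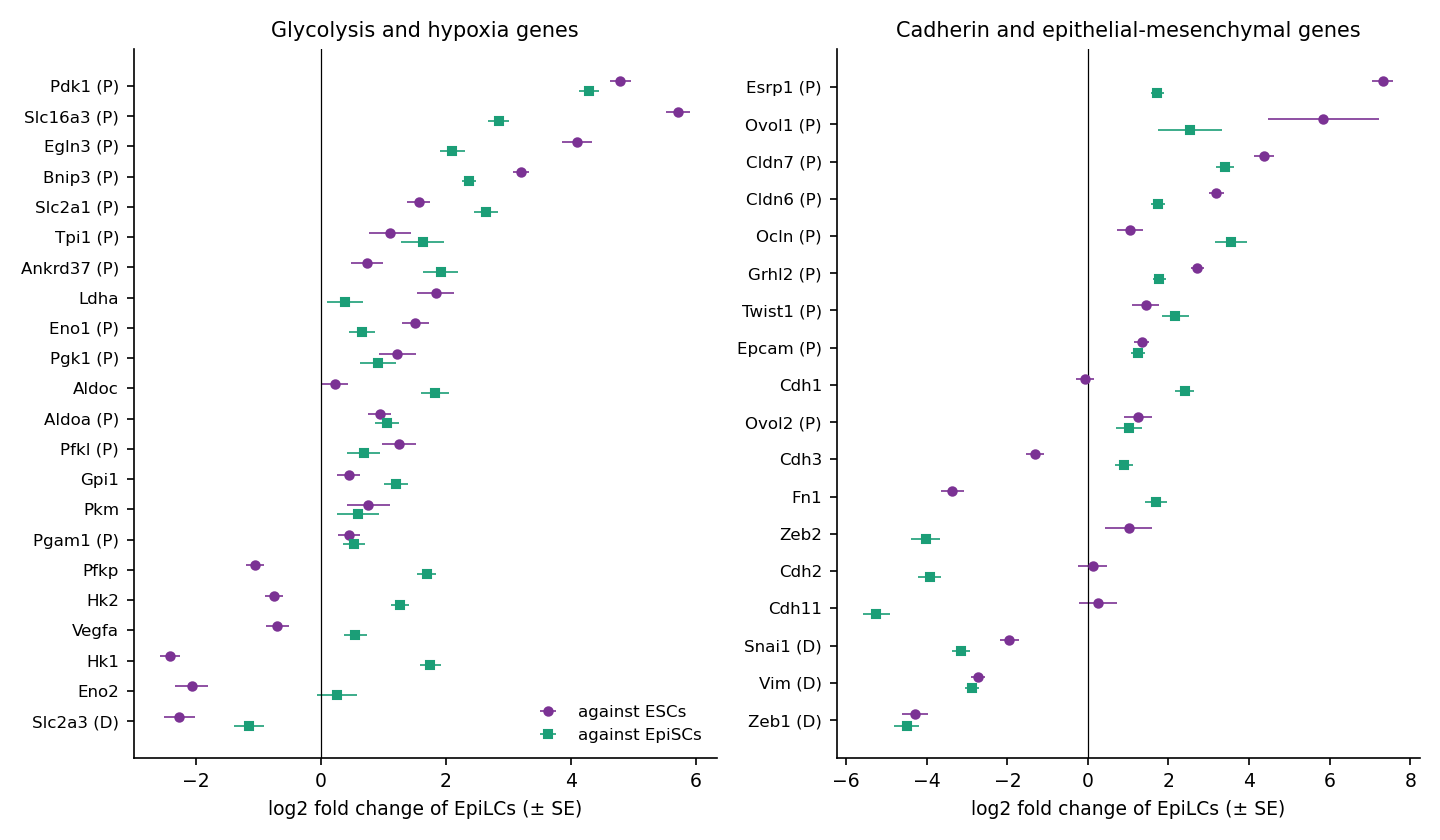
Log2 fold change of EpiLCs against ESCs (purple circles) and against EpiSCs (green squares), with SE, for the 22 glycolysis and hypoxia genes and the 18 tested cadherin and epithelial-mesenchymal genes. P marks the 12 and 9 peaking genes and D the 1 and 3 dipping genes, with Zeb1, Vim and Snai1 to the left of 0 in both comparisons. Fitted changes of genes with 0 counts in a group are no bounds.

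Amino acid and stress response genes peaked in 12 of 20 cases (60%, against 11.0% of all tested genes) and none dipped. The median log2 fold change against both ends was 0.82. The 8 that did not peak were Atf4, Atf5, Ddit3, Asns, Sesn2, Shmt2, Slc7a5 and Cth. In this list 3 genes were called lower than in ESCs and 1 lower than in EpiSCs. Chac1, a glutathione-degrading enzyme induced by ATF4, was at 42.1, 44.8 and 41.6 in ESCs, 282, 297 and 275 in EpiLCs and 14.4, 24.2 and 18.7 in EpiSCs. Phgdh, which starts serine synthesis, was at 234, 301 and 298 in ESCs, 859, 818 and 857 in EpiLCs and 385, 412 and 389 in EpiSCs. Mthfd2, a mitochondrial folate enzyme, was at 186, 223 and 202 in ESCs, 483, 425 and 462 in EpiLCs and 129, 153 and 147 in EpiSCs. Trib3, Psph, Slc3a2 and Vldlr also peaked. The calls of Atf3 and Psat1 were each lost in 11 alternative analyses, that of Ddit4 in 8, that of Cebpb in 6 and that of Slc7a11 in 2. The smaller log2 fold change of Slc7a11, the cystine transporter, was 0.71 with all samples and 0.46 without EpiSC replicate 1. Without the 3 libraries that stood apart 9 genes of the list peaked, and over the single alternatives 7 to 12. None of the 12 peaking genes had its EpiLC samples above all 15 other samples of the series, whereas 35.4% of all peaking genes did.

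Of 13 antioxidant and metallothionein genes 4 peaked (30.8%, against 11.0% of all tested genes), Hmox1, Gclm, Gclc and Prdx1. Hmox1, heme oxygenase 1, was at 256, 241 and 228 in ESCs, 831, 741 and 754 in EpiLCs and 316, 279 and 300.4 in EpiSCs. Of 25 sterol and fatty acid synthesis genes 3 peaked (12%), close to the 11.0% of all genes, and the calls of Sqle and Pmvk were lost in 10 and 4 alternative analyses. Of 10 MHC class I genes 2 peaked, H2-D1, whose call was lost in 8 alternative analyses, and the immunoproteasome subunit gene Psmb9, at 0.538, 0.318 and 0 in ESCs, 13.9, 12.6 and 8.48 in EpiLCs and 3.59, 3.61 and 5.74 in EpiSCs.

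Epithelial cells are held together by cadherin and claudin junctions, and the transition to mesenchyme is driven by repressors of the Snail and Zeb families. Of 18 tested cadherin and epithelial-mesenchymal genes 9 peaked (50%, against 11.0% of all tested genes) and 3 dipped (16.7%, against 6.89%). The median log2 fold change was 1.15 against both ends. The peaking genes were the adhesion molecule Epcam, the tight junction genes Cldn6, Cldn7 and Ocln, the epithelial splicing factor Esrp1, the epithelial transcription factors Grhl2, Ovol1 and Ovol2, and the mesenchymal factor Twist1. The dipping genes were the mesenchymal intermediate filament gene Vim and the repressors of E-cadherin Zeb1 and Snai1. Esrp1 was at 0.625, 0.369 and 1.06 in ESCs, 86.7, 129.8 and 125 in EpiLCs and 31.2, 38.9 and 34.4 in EpiSCs. Cldn7 was at 8.09, 7.77 and 6.30 in ESCs, 154, 175 and 125 in EpiLCs and 12.8, 17.6 and 12.3 in EpiSCs. Epcam was at 736, 395 and 459 in ESCs, 1556, 1242 and 1175 in EpiLCs and 583, 507 and 600.3 in EpiSCs. Vim was at 811, 734 and 709 in ESCs, 116, 106 and 116 in EpiLCs and 882, 764 and 854 in EpiSCs (log2 fold change -2.73 ± 0.17 SE and -2.87 ± 0.18 SE), with similar levels at both ends. Snai1 was at 42.5, 48.8 and 64 in ESCs, 11.4, 14.7 and 13.9 in EpiLCs and 119.8, 127 and 118 in EpiSCs. E-cadherin (Cdh1) was at 1250.1, 789 and 844 in ESCs, 915, 964 and 849 in EpiLCs and 170.1, 177 and 174 in EpiSCs, higher than in EpiSCs (adjusted p = 9.45e-08) with no difference detected against ESCs (-0.07 ± 0.23 SE, adjusted p = 0.815). N-cadherin (Cdh2) was at 4.58, 3.07 and 1.99 in EpiLCs and 49.1, 51.5 and 47.7 in EpiSCs. Ovol1 was at or below 3.05 in every sample of the 3 groups, and its call was lost in 3 alternative analyses and that of Ovol2 in 4. Without the 3 libraries that stood apart 7 genes of the list peaked and 3 dipped. None of the 9 peaking genes had its EpiLC samples above all 15 other samples of the series, whereas 35.4% of all peaking genes did. All 3 dipping genes had theirs below all 15.

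Of 8 tested fibroblast and feeder genes, Dcn and Thy1 peaked (25.0%, against 11.0% of all tested genes). Dcn, a small proteoglycan, was at 25.5, 5.58 and 12.3 in ESCs, 79.8, 59.4 and 54.4 in EpiLCs and 0 in all EpiSC samples. The summed level of the 7 defining markers was 41.8 to 101 in ESCs, 111 to 126 in EpiLCs and 17.1 to 19.9 in EpiSCs, where Dcn and Lum were at 0. Its part in the results was not tested. The fibroblast collagen gene Col1a1 was instead at 29.4, 14.4 and 23.3 in ESCs and 0.704, 4.58 and 5.54 in EpiLCs. Of 9 tested neural genes Sox1 peaked (11.1%), at 8.13, 11.5 and 7.75 in EpiLCs, and Ncam1 dipped (11.1%). Of 12 trophoblast and keratin genes Krt18 peaked and Tead4 dipped (8.33% each). Of 13 basement membrane genes Col18a1 peaked (7.69%) and Sparc and Lamb2 dipped (15.4%). Of all tested genes 11.0% peaked and 6.89% dipped. The call of Lamb2 was lost without EpiLC replicate 1 or 3, without EpiSC replicate 3 and without the 3 libraries that stood apart, and that of Krt18 without EpiSC replicate 2 and without the 3 libraries.

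**Figure D5:**
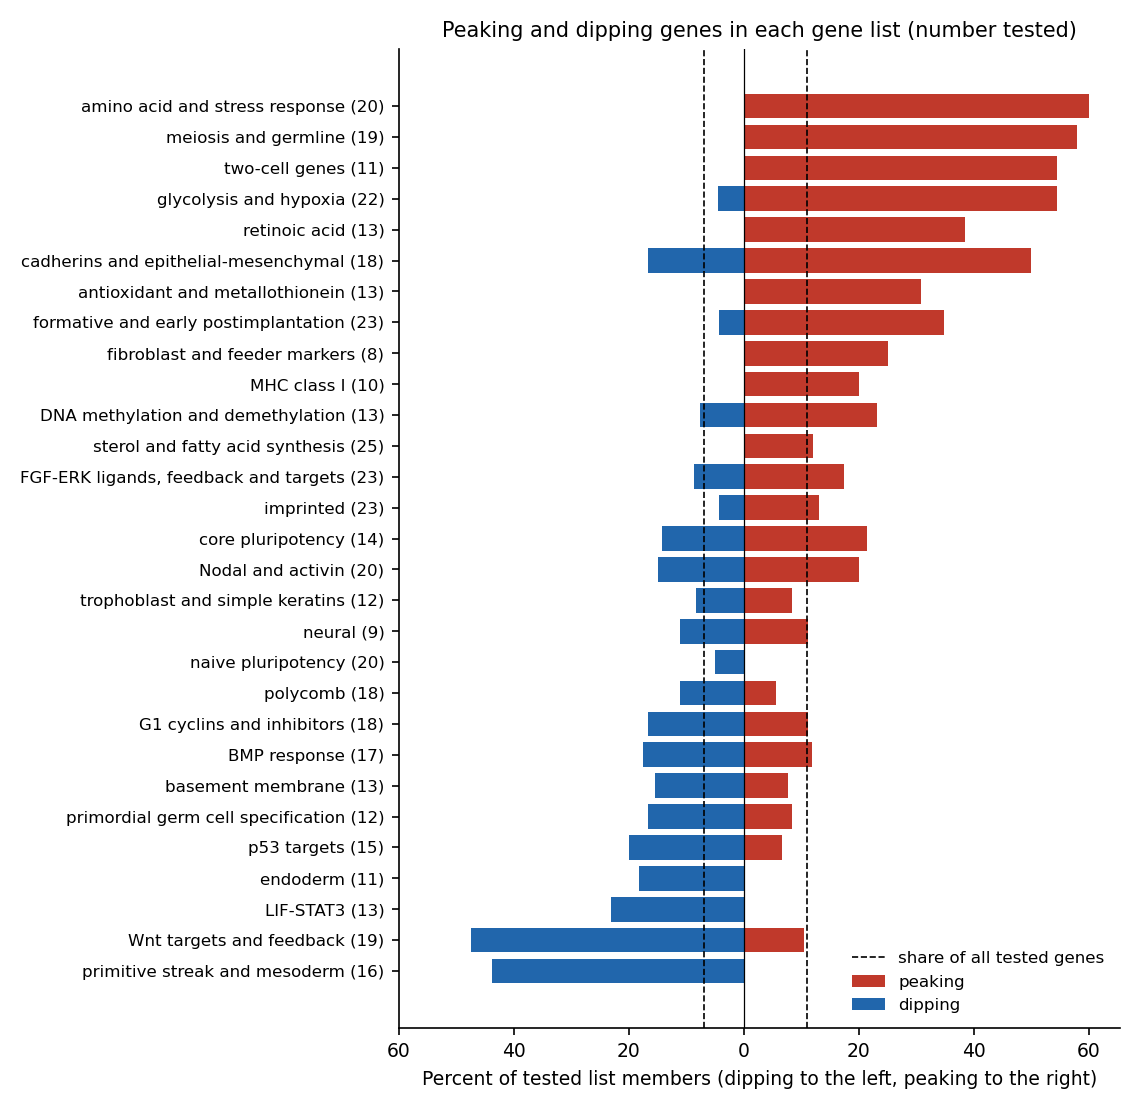
Percent of the tested genes of each list that peaked (red, to the right) or dipped (blue, to the left) in EpiLCs, with the number tested in brackets. Dashed lines are the shares of all tested genes, 11.0% and 6.89%, and the longest bars are those of the amino acid and stress list (60%) on the right and of the Wnt list (47.4%) on the left.

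The 15 dipping genes with the largest changes, among those with a mean above 8 at both ends, were Sp5, Npy, Krtdap, Gsc, Pga5, Gm45812, Unc93a, Ngfr, Zeb1, Ntn1, Mfsd2b, Dkk1, Pdlim4, Meis2 and Tnfrsf19. The largest was Sp5, a zinc finger factor and direct target of Wnt signalling. It was at 505, 515 and 545 in ESCs, 1.65, 0.421 and 0.510 in EpiLCs and 195, 184 and 191 in EpiSCs (log2 fold change -9.22 ± 0.33 SE, adjusted p = 6.83e-14, and -7.76 ± 0.34 SE, adjusted p = 1.87e-12). Gsc (goosecoid), a homeobox factor of the organizer, was at 208, 166 and 190.0 in ESCs, 3.64, 2.79 and 5.91 in EpiLCs and 852, 709.6 and 974 in EpiSCs. Ngfr, the p75 neurotrophin receptor, was at 81.1, 105 and 106 in ESCs, 4.36, 5.39 and 2.48 in EpiLCs and 65.1, 109 and 72.6 in EpiSCs.

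Npy, neuropeptide Y, had no count in EpiLCs and was at 24.4, 20.6 and 7.88 in ESCs and 34.8, 32.7 and 30.4 in EpiSCs, at least 9.06-fold and at least 17.9-fold lower in EpiLCs against a floor of 3 counts over the group. Krtdap, also at 0 in EpiLCs, was at least 15.5-fold and at least 7.96-fold lower. Pga5, a pepsinogen gene, had 2 counts in EpiLCs, both in replicate 2, for a ratio of EpiSCs to EpiLCs of 46.3 (95% counting interval 12.5 to 388). Its fitted log2 fold change of -5.31 became -8.11 without EpiLC replicate 2. Gm45812 shares 90.1% of its exonic bases with Kifc3 on the opposite strand and lost its call without the 3 libraries that stood apart. Zeb1 was at 7.59, 12.4 and 11.7 in ESCs, 0.229, 0.700 and 0.635 in EpiLCs and 12.6, 13.9 and 11.1 in EpiSCs. Meis2, a homeobox factor, was at 41.5, 38.8 and 35.3 in ESCs, 1.82, 2.06 and 2.22 in EpiLCs and 29.9, 26 and 28.1 in EpiSCs. Tnfrsf19, a receptor of the TNF family also called TROY, was at 136, 92.8 and 94.3 in ESCs, 9.68, 9.63 and 7.62 in EpiLCs and 129, 125 and 126 in EpiSCs.

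Wnt target and feedback genes were the list with the highest dipping share. In canonical Wnt signalling, stabilised beta-catenin acts with TCF and LEF factors on target genes, several of which encode inhibitors of the pathway. Of 19 genes, 9 dipped (47.4%, against 6.89% of all tested genes), Sp5, Axin2, Dkk1, Notum, Rnf43, Sfrp1, Tcf7l1, T and Cdx1, and 2 peaked, Lef1 and Nkd2. The median log2 fold change was -0.88 against both ends (-1.23 with 2 genes that had a group at 0 placed at their bound), -1.61 against ESCs and -0.96 against EpiSCs. Axin2, the scaffold of the beta-catenin destruction complex and the most used readout of the pathway, was at 185, 226 and 216 in ESCs, 6.51, 9.48 and 9.13 in EpiLCs and 98.9, 103 and 98 in EpiSCs (-4.62 ± 0.20 SE, adjusted p = 8.79e-13, and -3.55 ± 0.20 SE, adjusted p = 4.43e-11). Dkk1, the secreted receptor antagonist, was at 23.5, 10.1 and 12 in ESCs, 1.43, 1.09 and 0.441 in EpiLCs and 64.9, 60.3 and 68.4 in EpiSCs. Notum, the enzyme that removes the lipid of Wnt ligands, was at 653, 454 and 506 in ESCs, 3.36, 4.78 and 2.67 in EpiLCs and 14.7, 16.8 and 16.6 in EpiSCs, and shares 38.1% of its exonic bases with genes on the opposite strand, mostly Notumos.

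Notum was far higher in ESCs than in EpiSCs, and Dkk1 higher in EpiSCs. Rnf43, a ubiquitin ligase that removes Wnt receptors, was at 11.7, 11.5 and 12.9 in ESCs, 0.529, 0.540 and 0.653 in EpiLCs and 1.20, 2.02 and 1.75 in EpiSCs. Its call was lost without the 3 libraries that stood apart, where 8 genes of the list dipped and 2 peaked. Of the pathway's transcription factors, Tcf7l1 dipped, at 405, 534 and 576 in ESCs, 203, 270.3 and 278 in EpiLCs and 394, 467 and 419.9 in EpiSCs. Lef1 peaked, at 22.2, 19.5 and 18.9 in ESCs, 60.9, 80.4 and 89.4 in EpiLCs and 35.8, 35.1 and 37.3 in EpiSCs. Tcf7 was at 337 ± 26.3 in ESCs, 289 ± 17.9 in EpiLCs and 292 ± 11.8 in EpiSCs (SD, n = 3), with adjusted p of 0.102 and 0.996. The peaking call of Nkd2, at most 6.55 in any EpiLC sample, was lost in 12 alternative analyses, among them the fit with the replicate block (smaller log2 fold change 0.63, against 0.64 without it).

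Promoter windows were at hand for 12 of these 19 genes, under 80%, so a share over the list was not read. The TCF-type letters CTTTGAT and CTTTGTT were searched on both strands and were present in 9.28% of all 27025 windows. Of the 6 dipping genes of the list with a window, 2 held them, Sp5 and Dkk1. The others, Axin2 and T among them, did not. The window of Sp5, the gene with the largest dip, is shown around its 2 matches. Both stretches are on the plus strand of GRCm38.p6, at chr2:70474690-70474719, where AACAAAG is CTTTGTT on the opposite strand, and at chr2:70474808-70474837. The matched letters, in capitals, start 222 and 104 bases before the annotated start.
Sp5 distal: ttcctagagatAACAAAGacactttgtcac
Sp5 proximal: ggcaaggccccCTTTGATcaggaaaatcca

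Genes of the primitive streak and mesoderm overlapped with this list. Of 16 tested, 7 dipped (43.8%, against 6.89% of all tested genes) and none peaked. The dipping genes were Sp5, Gsc, T, Evx1, Kdr, Nkx1-2 and Cdx1, of which Sp5, T and Cdx1 are counted in both lists. The median log2 fold change was -2.48 against both ends, -4.0 against EpiSCs and -0.83 against ESCs. T was lower in EpiLCs than in ESCs (-1.86 ± 0.31 SE, adjusted p = 3.89e-05) as well as in EpiSCs (-6.16 ± 0.27 SE). Cdx1, a caudal homeobox factor, was highest in ESCs, at 135, 142 and 135, against 2.64, 2.02 and 1.22 in EpiLCs and 18, 16.1 and 13.6 in EpiSCs. The VEGF receptor gene Kdr was at or below 2.62 in every sample of the 3 groups, and Evx1 had 3 counts in all in EpiLCs and lost its call without ESC replicate 2. Without the 3 libraries that stood apart 7 genes of the list dipped and 1 peaked. Eomes was no dipping gene, being higher in EpiLCs than in ESCs (2.36 ± 0.28 SE). Of 11 endoderm genes Hhex and Cxcr4 dipped (18.2%, against 6.89% of all tested genes). Hhex, a homeobox factor of the anterior endoderm, was at 43.1, 41.3 and 42.5 in ESCs, 13.3, 10.6 and 12.3 in EpiLCs and 37.6, 27.6 and 34.3 in EpiSCs.

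Nanog, the homeobox factor of naive pluripotency that EpiSCs also express, dipped. It was at 4967, 3671 and 3688 in ESCs, 263, 193 and 204 in EpiLCs and 1619, 1283 and 1534 in EpiSCs (log2 fold change -4.21 ± 0.18 SE, adjusted p = 5.74e-13, and -2.73 ± 0.17 SE, adjusted p = 1.51e-10). Sall4, a zinc finger factor, dipped less, at 249 ± 3.99 in EpiLCs, 459 ± 47.1 in ESCs and 378 ± 41.6 in EpiSCs (SD, n = 3). Kit, the receptor tyrosine kinase of germ cells, was at 468, 279 and 305 in ESCs, 10.2, 11.4 and 12 in EpiLCs and 118, 114 and 123 in EpiSCs. By contrast Sox2 fell from 2329 ± 316 in ESCs through 442 ± 85.2 in EpiLCs to 76.1 ± 9.12 in EpiSCs. Of 13 LIF-STAT3 genes 3 dipped (23.1%, against 6.89% of all tested genes) and none peaked. The median log2 fold change was -3.12 against ESCs and 0.16 against EpiSCs, or -1.54 against both. In this list 12 genes were lower than in ESCs, whereas 5 were higher and 3 lower than in EpiSCs. Socs3, the feedback inhibitor induced by STAT3, was at 386, 393 and 365 in ESCs, 8.79, 9.49 and 8.51 in EpiLCs and 28.1, 26.8 and 21.1 in EpiSCs. The receptor subunit gene Il6st was at 103, 70 and 83.8 in ESCs, 9.58, 8.77 and 10.1 in EpiLCs and 20.6, 18.7 and 18.9 in EpiSCs. Junb, an AP-1 factor, was at 65, 57.2 and 70.3 in ESCs, 34.1, 27.3 and 40 in EpiLCs and 107, 85.4 and 114 in EpiSCs.

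Of 18 listed cell cycle regulators of G1, Ccne1 and Myc peaked (11.1%, close to the 11.0% of all tested genes). Ccnd3, Cdkn1a and Mycl dipped (16.7%, against 6.89%). Cyclin E1 (Ccne1), which partners CDK2 at entry into S phase, was at 268, 292 and 251 in ESCs, 770.4, 789.9 and 838 in EpiLCs and 320.4, 336 and 325 in EpiSCs. Cyclin D3 (Ccnd3) was at 331, 361 and 342 in ESCs, 72.2, 69 and 69.9 in EpiLCs and 254, 272 and 275 in EpiSCs. Cdkn1a, which encodes the CDK inhibitor p21, was at 942, 1339 and 1392 in ESCs, 219, 238 and 265 in EpiLCs and 598, 642 and 629 in EpiSCs. The Myc genes moved in opposite directions. Myc was at 8.54, 10.1 and 7.26 in ESCs, 234, 208 and 210.0 in EpiLCs and 127, 103 and 129 in EpiSCs. Mycl was at 122, 181 and 182 in ESCs, 43.2, 59.6 and 62.5 in EpiLCs and 332, 433 and 358 in EpiSCs. Of 15 p53 targets, Cdkn1a, Btg2 and Phlda3 dipped (20%, against 6.89% of all tested genes) and Pmaip1 peaked (6.67%, against 11.0%). Pmaip1 (Noxa), a pro-apoptotic BH3 protein, was at 35, 26.4 and 29.9 in ESCs, 696, 538 and 579 in EpiLCs and 229, 188 and 219.7 in EpiSCs. The call of Phlda3 was lost in 3 alternative analyses, and with the replicate block 5 genes of the list dipped. None of 6 sex-linked genes listed as a check peaked or dipped. Of these, 2 were called lower than in ESCs and 2 lower than in EpiSCs, and 3 had a group at 0. A difference in sex chromosomes between the groups was not tested.

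The 9 samples of AFSCs, ASCs and ESC-ASCs played no part in the calls. In the same fit, 4131 genes were higher and 3826 lower in EpiLCs than in AFSCs (24.4% and 22.6%), 4793 and 5308 than in ASCs (28.4% and 31.4%), and 5448 and 5387 than in ESC-ASCs (32.2% and 31.9%). Since all comparisons share the 3 EpiLC samples, an agreement between them is no independent evidence. Of the peaking genes 657 (35.4%, or 3.89% of tested genes) had their 3 EpiLC samples above all 15 other samples of the series. Of the dipping genes 476 (40.9%, or 2.82% of tested genes) had them below. Without regard to the calls, 4.65% and 3.43% of tested genes did. Above all 15 were 4 of the 8 peaking formative genes and 4 of the 11 peaking germline genes. Pou3f1 was at 239.6 ± 37.6 (SD, n = 3) in AFSCs, 13.9 ± 1.53 in ASCs and 11.4 ± 1.06 in ESC-ASCs. Utf1 was at 2023 ± 378 in AFSCs, 989 ± 359 in ASCs and 821 ± 35.7 in ESC-ASCs. Dnmt3b was at 1023 ± 132 in AFSCs, 151 ± 16.2 in ASCs and 252 ± 21.1 in ESC-ASCs. All samples of these groups lay below all EpiLC samples for the 3 genes. Tcf15 in ASCs, at 243 ± 81.9, overlapped the EpiLC range.

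Other members were shared with 1 or 2 of these groups. Mael was at 0 in all AFSC samples, 51 ± 15.6 in ASCs and 91.5 ± 5.09 in ESC-ASCs. Dnmt3l was at 2.49 ± 0.196 in AFSCs, 822 ± 193 in ASCs and 1043 ± 25.7 in ESC-ASCs, so that every sample of ASCs and ESC-ASCs was above EpiLCs. Lefty1 was higher in AFSCs, at 3998 ± 701, than in EpiLCs. Bnip3 was higher in ESC-ASCs, at 1647 ± 76.5. Among dipping genes, Sp5 was at 89 ± 23 in AFSCs, 103 ± 25.3 in ASCs and 15.5 ± 2.52 in ESC-ASCs. Nanog was at 738 ± 69.3 in AFSCs, 2663 ± 382 in ASCs and 1691 ± 101 in ESC-ASCs. Both were still lowest in EpiLCs. Kit, at 8.89 ± 3.93 in AFSCs, overlapped there with its EpiLC level.

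The peaking and dipping genes lay on all autosomes and the X chromosome, and 1 dipping gene was mitochondrial. Protein-coding genes made up 1707 of the peaking and 1102 of the dipping genes (11.8% and 7.59% of those tested), and of 472 tested long intergenic noncoding RNAs 45 peaked (9.53%) and 8 dipped (1.69%). Chromosome 12 stood apart, with 30 peaking genes (5.08%) and 69 dipping genes (11.7%) of 591 tested. Its median log2 fold change was -0.44 for EpiLCs against EpiSCs, 0.11 for EpiLCs against ESCs and 0.59 for EpiSCs against ESCs. Chromosome 14 had the next highest median for EpiSCs against ESCs, 0.21, and the highest for EpiLCs against ESCs, 0.25. The remaining autosomes had medians of -0.15 to 0.06 for EpiSCs against ESCs. The part of these shifts in the calls on chromosomes 12 and 14 was not tested. The calls on chromosome 12 include Gsc and Mfsd2b. Dropping the genes of chromosomes 12 and 14 from the same fit leaves 1768 peaking and 1066 dipping genes. That count follows from the calls on these chromosomes and is no test of the shifts. On chromosome 18, the Pcdhg protocadherin cluster gave 21 of the 51 dipping genes. These 21 genes, named after their values were seen, share their 3′ constant exons, and each was credited with the shared fragments, and are not separate measurements, with log2 fold changes of -0.64 to -0.51 against ESCs and -2.16 to -1.88 against EpiSCs. Among all tested genes 37.2% shared some exonic bases with another gene, against 32.9% of peaking and 35.8% of dipping genes.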

How the data were processed

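Polyadenylated RNA of 18 samples, 3 in each of 6 groups, was sequenced with a directional kit. The deposited files hold gene-level counts, and the authors obtained them with TopHat2, GRCm38 (mm10), Ensembl release 86 and featureCounts 1.5.0-p1. Multi-mapping and multi-overlapping fragments were counted, with a minimum overlap of 10 bases, and no strand option is given in the sources used here. Overlapping, antisense and near-identical genes therefore share fragments.

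A gene was tested if 3 or more of the 18 samples held 10 counts or more, which 16901 of 35773 did. Counts were fitted over all 18 samples with edgeR 4.0.16 (TMM, robust quasi-likelihood test, R 4.3.3), and p-values were adjusted by Benjamini-Hochberg over all tested genes. SE was the absolute log2 fold change divided by the square root of F. The mean of both ends weighted ESCs and EpiSCs equally. Overlap between samples was judged on counts scaled by the size factors of DESeq2 1.42.0, and levels were these values per kb of exon. Intervals at the 95% level and floors of 3 counts cover counting error only.

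Named were the 15 peaking and 15 dipping genes with the largest smaller log2 fold change of both comparisons, above a mean of 8, the peaking or dipping members of 30 gene lists with up to 4 other examples each, and 8 marker genes. Members and lists were chosen with earlier results of these data known. The Pcdhg genes, Fthl17b, Fthl17c, Fthl17d, Prss44, Gm11670 and Notumos were named after their values were seen. A listed gene that passed the rule is not reported here. Symbols were matched for 35514 gene identifiers.

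Replicate numbers are shared between groups. Deviations from the group means of same-numbered EpiLC and ESC samples correlated at 0.462, 0.178 and 0.252, all over 0.1, and those of EpiLC and EpiSC samples at 0.270, 0.289 and -0.127. Differently numbered EpiLC and ESC samples correlated at -0.382 to 0.268, and differently numbered EpiLC and EpiSC samples at -0.43 to 0.296. A pairing by number cannot be read from these values. The fit was tested on simulated data. Alternatives were other scalings, filters, tools and sample sets, the replicate block, and each library left out in turn.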

Additional observations from a re-analysis of the deposited data

How the results depend on the processing

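Over 20 alternatives, the count of dipping genes moved by less than 1.5 times, and that of peaking genes by more only under the filter of at least 10 counts in every one of the 9 samples, which leaves out genes at 0 in a group. There 1016 genes peaked, 961 of them among those called, 2609 were higher than the mean of both ends, 3009 were higher than in ESCs, and 2536 were higher and 2388 lower than in EpiSCs. With each library left out in turn, 1590 to 1910 genes peaked and 1024 to 1254 dipped. DESeq2's Wald test gave 1823 and 1202, and the replicate block 1927 and 1217. Of the peaking and dipping genes named, the block lost the call of Nkd2, and it added calls in the lists (peaking 9 formative, 13 glycolysis and 4 DNA methylation genes, dipping 5 p53 targets). Left out after seeing the data were mitochondrial genes (1756 peaking and 1216 dipping), chromosomes 12 and 14 (1768 and 1066) and the 3 libraries that stood apart (1563 and 941). For chromosomes 12 and 14 the genes were only dropped from the same fit, so these counts could not come out otherwise.

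For 190 named genes and 3106 pairs of a gene and an alternative, the call was kept in 2969 and lost in 137, and no direction reversed. Pairs in which the gene could not be tested are not among them. With at least 10 counts in every one of the 9 samples, 98 genes kept their call and 1 lost it. The 190 include genes that neither peaked nor dipped, such as Fgf5 and Otx2, for which only the smaller change was followed. The calls lost most often were those of Nkd2, Atf3, Psat1, Sqle, H2-D1 and Ddit4, with smaller log2 fold changes below 1. Where counts at the ends are near 0, depth limits how large a change can be shown.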

Other observations

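Some peaking genes lay next to each other. A run of neighbouring tested genes on chromosome 7 (chr7:45570153-45639093, GRCm38) held Bcat2, Fgf21, Fut1, Izumo1, Rasip1, Gm45437 and A030001D20Rik, all peaking, and one on chromosome 10 (chr10:77986947-78079525) held Pfkl, Aire, Dnmt3l and Icosl. Another run of 7 genes on chromosome 10, from Gm21293 to Gm4340, consists of near-identical copies and is not 7 measurements. Whether such runs are more frequent than the number of peaking genes gives was not tested.

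Of 5 tested genes of the Fthl17 family, X-linked relatives of the ferritin heavy chain, 4 peaked. Fthl17b was at 46.8, 31.8 and 17.2 in ESCs, 94.7, 69.3 and 89 in EpiLCs and 0, 1.05 and 0 in EpiSCs, and its EpiSC samples held 1 count in all. These genes are similar in sequence and may share fragments. Prss44, a serine protease gene related to Prss50, had no count in ESCs or EpiSCs and was at 5.24, 8.77 and 6.67 in EpiLCs, at least 18.8-fold and at least 24.4-fold higher. Among the dipping genes, Gm11670 lies opposite Axin2, with 40.9% of its exonic bases shared, and was at 116, 232 and 266 in ESCs, 2.26, 12.1 and 6.28 in EpiLCs and 56.5, 89.7 and 80.3 in EpiSCs, and reads of the pair cannot be told apart without strand.

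Of the 639 genes whose EpiLC samples lay above all 6 others without both tests passing, and the 561 below, none is counted here as peaking or dipping. A further 81 genes were called higher in both comparisons, and 59 lower, although samples overlapped.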
